A study of Sus scrofa with 12 samples.

Results

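The expression of 5 genes of thyroid hormone activation and response was described in the jejunal mucosa of 12 pigs. The genes were the deiodinases DIO1 and DIO2, the nuclear receptors THRA and THRB, and the hormone-responsive transcription factor KLF9, out of 13538 genes with a symbol on the array. They were represented by 14 of 47722 probe sets, a probe set being a group of short probes against 1 transcript or a stretch of it: 2 for DIO1, 5 for DIO2, 2 for THRA, 4 for THRB and 1 for KLF9. For each gene the probe set of the highest mean over the 12 arrays is called its main probe set. The genes were chosen on the measured difference of DIO1 between the feed efficiency groups, so that difference is described here without a test. The same contrast in the other genes is not independent of that choice either.

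The thyroid gland secretes mostly thyroxine (T4), a prohormone that becomes active when a deiodinase removes an iodine from its outer ring to give triiodothyronine (T3). DIO1 and DIO2 are membrane enzymes that do this with a selenocysteine in the active site, while DIO3 removes an inner-ring iodine and inactivates the hormone. T3 enters cells through membrane transporters and binds the receptors THRA and THRB, which sit on DNA with a retinoid X receptor and exchange corepressors for coactivators when the hormone binds. KLF9 is a Krüppel-like factor that T3 and glucocorticoids induce in many mammalian tissues, and in mouse liver KLF9 acts together with HNF4A on the DIO1 gene. In the intestine of rodents and amphibians T3 acts largely through THRA on the growth of the crypts.

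The samples were 6 pigs labelled as having high feed efficiency and 6 labelled as having low feed efficiency. Each group was made up of 3 males and 3 females, all at 140 days after birth. Feed efficiency is growth per unit of feed eaten, and its scoring, the breed and the diet were not given in the sources used here. Total RNA of the mucosa of each pig was hybridized to 1 Affymetrix array of the pig Snowball design. The pigs are named by group and a replicate number, of which 1 to 3 are males and 4 to 6 are females.

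The deposited values were log2 signals, on which a difference of 1 is a doubling. Array medians lay between 4.02 and 4.16, and the correlation between any pair of arrays was 0.95 to 0.979. Enterocyte markers, which define the absorptive cells of this tissue, were high in every pig: the mean of 20 measured markers was 8.22 to 10.01 in high feed efficiency pigs, and 9.31 to 10.35 in low feed efficiency pigs. High feed efficiency replicate 1 stood apart, with the lowest array weight (0.402, against 0.698 to 1.64 in the others), the lowest enterocyte mean (8.22) and the highest mean of pancreas and stomach markers (6.39, against 4.09 to 5.26). The dim end of the scale was set by 12 probe sets against yeast, viral and bacterial sequences, with means of 1.34 to 1.90. Another 69 background probe sets had means of 1.21 to 7.70, with a median of 2.53, so a low signal alone did not show that a transcript was present. Probe sets differ in their probes, and the level of 1 is not set against that of another below.

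DIO1 signal was lower in high than in low feed efficiency pigs by its main probe set, although its other probe set differed far less. Both DIO1 probe sets were dim, at means of 4.44 and 4.40, where array medians were 4.02 to 4.16. Those means lay within the range of the 69 background probe sets, 1.21 to 7.70 with a median of 2.53. In the main probe set the high feed efficiency males were at 4.44, 4.32 and 3.94 log2 units, and the high feed efficiency females at 4.26, 3.44 and 3.67. The low feed efficiency males were at 5.53, 5.27 and 5.09, and the low feed efficiency females at 4.34, 4.64 and 4.38. Of the 6 high feed efficiency pigs 5 lay below the lowest low feed efficiency pig, and the exception was high replicate 1 at 4.44, which lay above 2 low females. The group medians were 4.10 for high and 4.86 for low feed efficiency. Group means were 4.01 ± 0.399 in high feed efficiency and 4.88 ± 0.494 in low feed efficiency animals (SD, n = 6 each), a difference of -0.87 (SE 0.167), or a signal 0.549 times as high. Without high replicate 1, the pig with low enterocyte markers, the difference was -0.89. In bulk tissue fewer cells of a type and less RNA per cell cannot be told apart.

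**Figure D1:**
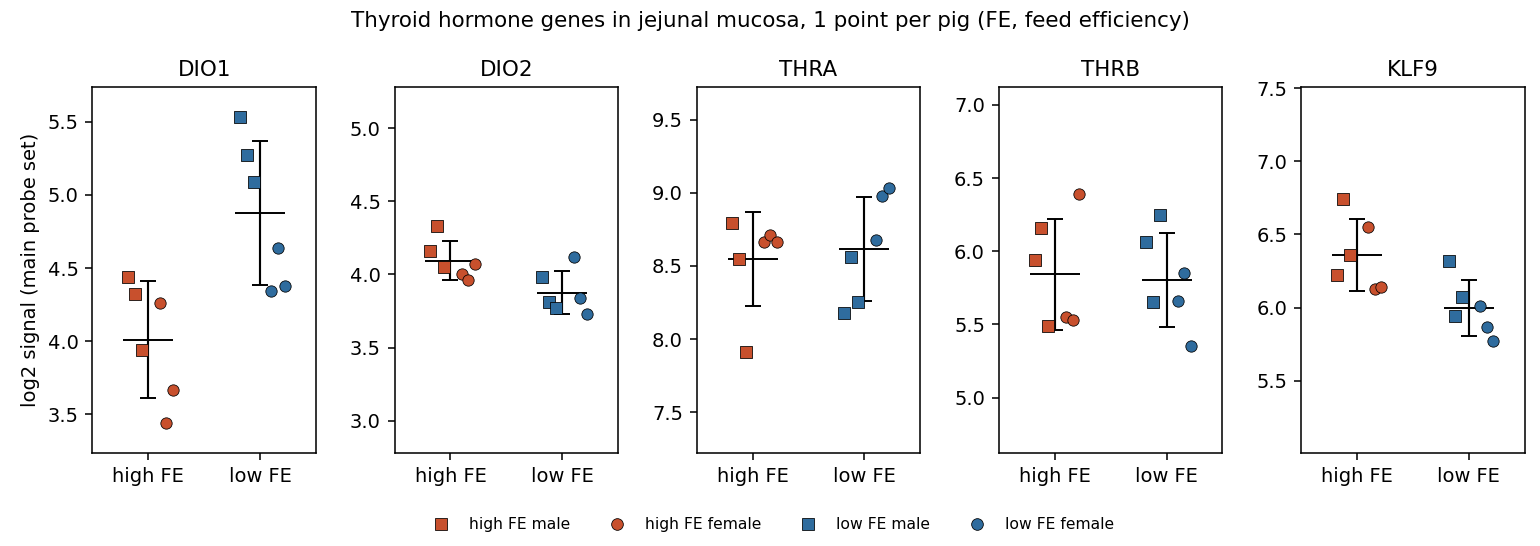
Log2 signal of the main probe set of DIO1, DIO2, THRA, THRB and KLF9 in each pig, with high feed efficiency (FE) on the left of each panel, low on the right, squares for males and circles for females. Horizontal bars are group means and whiskers 1 SD (n = 6); each vertical axis spans the same range of log2 units around its own centre, so that the separation of the DIO1 groups (means 4.01 and 4.88) can be compared with the small spread of DIO2.

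The other DIO1 probe set gave no such separation. It had a lowest, median and highest value of 3.80, 4.31 and 4.82 in high feed efficiency pigs, and 4.25, 4.38 and 4.78 in low feed efficiency pigs. The 6 low feed efficiency pigs all lay within the range of the high group. Its difference was -0.08 (SE 0.172), with means of 4.36 ± 0.405 in high feed efficiency and 4.44 ± 0.188 in low feed efficiency animals (SD, n = 6 each). The choice of main probe set rested on overall means of 4.44 and 4.40, and the mean of both probe sets differed between the groups by -0.47 (SE 0.155).

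The DIO1 probe sets correlated more closely within the groups than across them. Pearson's r between them was 0.56 over the 12 pigs and Spearman's rho 0.42 (permutation p 0.0585 and 0.176; adjusted over 9 pairs of probe sets 0.148 and 0.316), and r was 0.77 within the high group and 0.73 within the low group. The plot of both DIO1 probe sets shows the low feed efficiency males shifted to the right on the main probe set, with little shift on the other. Which transcript stretch each probe set covers was not analysed here, so the cause of the disagreement was not tested.

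**Figure D2:**
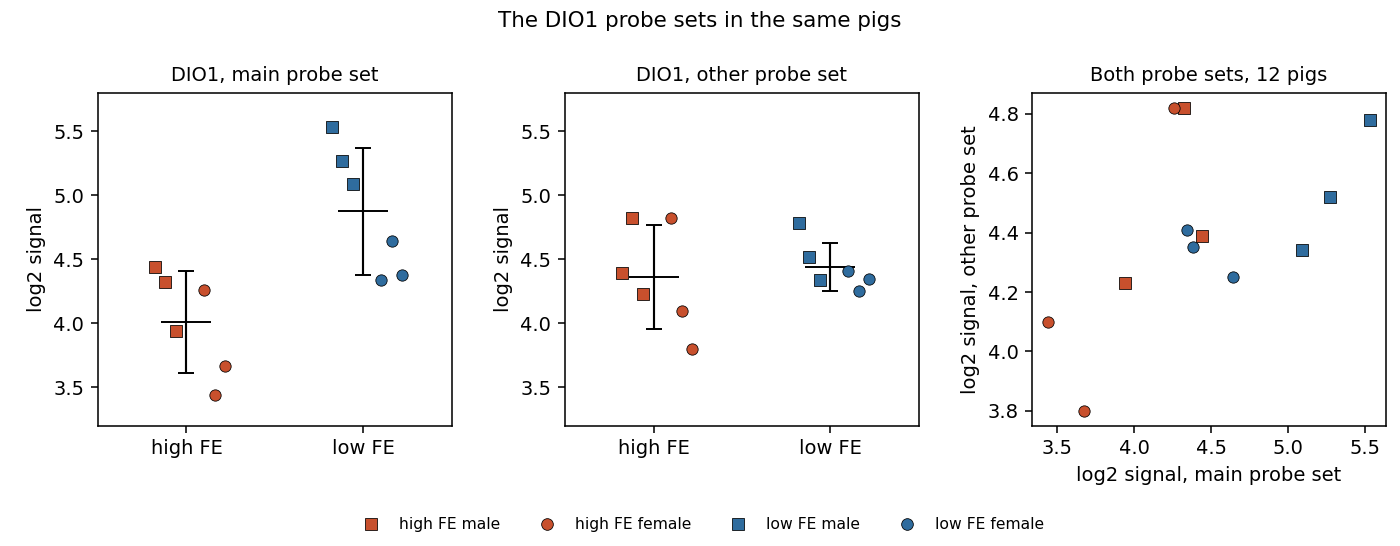
Both DIO1 probe sets in the same pigs: log2 signal by feed efficiency (FE) group for the main (left) and other (middle) probe set, with means and SD (n = 6), and 1 set against the other (right). Squares are males and circles females; the groups are 0.87 log2 units apart on the main probe set and 0.08 apart on the other.

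DIO1 also differed between the sexes, a contrast that played no part in choosing it. Males averaged 4.77 ± 0.623 and females 4.12 ± 0.465 (SD, n = 6 each), a difference of 0.64 (SE 0.167, 95% interval 0.28 to 1.01), and 5 of 6 males lay above the female median of 4.30. The unadjusted p was 0.00215, and limma's adjusted p over 35791 probe sets was 0.433, which did not pass the threshold of 0.05. Between the sexes 0.0168% of probe sets passed the adjusted threshold (6 of 35791) and 9.26% had an unadjusted p under 0.05. The other DIO1 probe set had a difference of 0.23 (SE 0.172, limma adjusted p 0.679). As the animals are separate pigs, these p-values measure the spread between individual pigs.

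The 4 means of group and sex ran in an order for DIO1. Low feed efficiency males were the highest at 5.30 ± 0.224, followed by low feed efficiency females at 4.45 ± 0.161, high feed efficiency males at 4.23 ± 0.261 and high feed efficiency females at 3.79 ± 0.426 (SD, n = 3 each). The gap of 0.84 between the first and the next exceeded the larger SD of that pair, as did the gap of 0.44 between high males and high females. Low females and high males were 0.22 apart, which was within the larger SD. The feed efficiency difference was -1.07 (SE 0.230) in males and -0.67 (SE 0.230) in females. The difference between these, -0.40 (SE 0.325), had a limma adjusted p of 0.820, so a difference between the sexes was not shown. For this interaction 0% of 35791 probe sets passed the adjusted threshold and 6.69% had an unadjusted p under 0.05.

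DIO2, the deiodinase that supplies T3 within cells, was dim, and its main probe set varied little between pigs. Its main probe set had a lowest, median and highest value of 3.96, 4.06 and 4.33 in high feed efficiency pigs, and 3.73, 3.82 and 4.12 in low feed efficiency pigs. All 6 high feed efficiency pigs lay above the low median, and 4 low feed efficiency pigs lay below the whole high group. The difference was 0.22 (SE 0.109, limma adjusted p 0.656; 95% interval -0.02 to 0.46). Of the 4 other DIO2 probe sets, 2 had differences of 0.24 and 0.14, and 2 were not tested, with means of 1.72 and 1.71 in the range of the dimmest controls. Against the main probe set these 4 correlated at r of -0.25 to 0.55, and none passed after adjustment. Between the sexes DIO2 differed by 0.07 (SE 0.109, limma adjusted p 0.852).

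THRA and THRB, the receptors for T3, were measured by main probe sets well above the dimmest controls, and neither differed detectably between the feed efficiency groups. The main THRA probe set had a mean of 8.58, above the range of the background probe sets (1.21 to 7.70). The other THRA probe set, at 6.93, and the main THRB probe set, at 5.82, lay within that range. The lowest, median and highest THRA value was 7.91, 8.66 and 8.79 in high feed efficiency pigs, and 8.18, 8.62 and 9.03 in low feed efficiency pigs. The groups overlapped, and high replicate 3, a male, was the lowest pig of all at 7.91. The difference was -0.07 (SE 0.156, limma adjusted p 0.932; 95% interval -0.41 to 0.27), and it was 0.03 without that pig, 0.05 after quantile normalization and 0.09 with array spread (SD of its values) as a covariate. The other THRA probe set differed by -0.29 (SE 0.188, limma adjusted p 0.719), and 5 of 6 high feed efficiency pigs lay below the low median on it.

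Between the sexes the THRA difference was opposite in sign to that of DIO1 and did not pass the test. Males averaged 8.37 ± 0.320 and females 8.78 ± 0.171 (SD, n = 6 each), a difference of -0.41 (SE 0.156, unadjusted p 0.0214, limma adjusted p 0.499). Of 6 males 5 lay below the female median of 8.69, and the exception was high replicate 1. On the other probe set the difference was -0.28 (SE 0.188), with all 6 males below the female median. The THRA probe sets correlated at r 0.63 and rho 0.80 over 12 pigs (permutation p 0.0299 and 0.00281; adjusted 0.135 and 0.0126).

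THRB had a lowest, median and highest value of 5.49, 5.75 and 6.39 in high feed efficiency pigs, and 5.35, 5.76 and 6.25 in low feed efficiency pigs. The groups overlapped almost fully, and the difference was 0.04 (SE 0.191, limma adjusted p 0.971; 95% interval -0.37 to 0.46). It was -0.10 without high replicate 6, the highest pig, -0.04 without low replicate 6, the lowest, and -0.01 without high replicate 2 or low replicate 2. The other 3 probe sets differed by 0.11, 0.24 and -0.15, with SEs of 0.237, 0.162 and 0.374, and the last was dim, with a mean of 3.52 and a lowest value of 1.91. The first of these followed the main one closely, at r 0.92 and rho 0.90 (permutation p 6e-05 and 0.00015; adjusted 0.00054 and 0.00135), whereas the remaining 2 had r of 0.32 and 0.44. Between the sexes THRB differed by 0.20 (SE 0.191, limma adjusted p 0.737) on the main probe set. It differed by 0.17 on the probe set that followed the main one closely, and by -0.15 and -0.32 on the remaining 2.

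KLF9, the transcription factor downstream of T3, was higher in high feed efficiency pigs at an unadjusted p only. Its single probe set had a mean of 6.17, within the range of the background probe sets (1.21 to 7.70). The lowest, median and highest KLF9 value was 6.13, 6.29 and 6.74 in high feed efficiency pigs, and 5.77, 5.97 and 6.32 in low feed efficiency pigs. All 6 high feed efficiency pigs lay above the low median, and 5 low feed efficiency pigs lay below the whole high group, the exception being low replicate 1 at 6.32. The means were 6.35 ± 0.246 in high feed efficiency and 6.0 ± 0.191 in low feed efficiency animals (SD, n = 6 each), a difference of 0.36 (SE 0.130, unadjusted p 0.0172, limma adjusted p 0.624; 95% interval 0.08 to 0.64). The difference was opposite in sign to that of DIO1, and it was 0.21 with array spread as a covariate. It was 0.33 (SE 0.190) in males and 0.39 (SE 0.190) in females, and the sexes differed by 0.20 (SE 0.130, limma adjusted p 0.636). For HNF4A, the other factor that acts on DIO1 in mouse liver, the difference was 0.03 (SE 0.0976), and its 5 tested probe sets ran from -0.21 to 0.40.

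None of the main probe sets of DIO2, THRA, THRB and KLF9 passed limma's adjusted threshold for feed efficiency, where 0% of 35791 probe sets passed. KLF9 had an unadjusted p under 0.05, as did 7.79% of all probe sets tested (2789 of 35791). The interaction with sex was 0.21 for DIO2, 0.31 for THRA, -0.32 for THRB and -0.06 for KLF9, with SEs of 0.216, 0.311, 0.387 and 0.268 and limma adjusted p-values of 0.854, 0.853, 0.878 and 0.973.

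**Figure D3:**
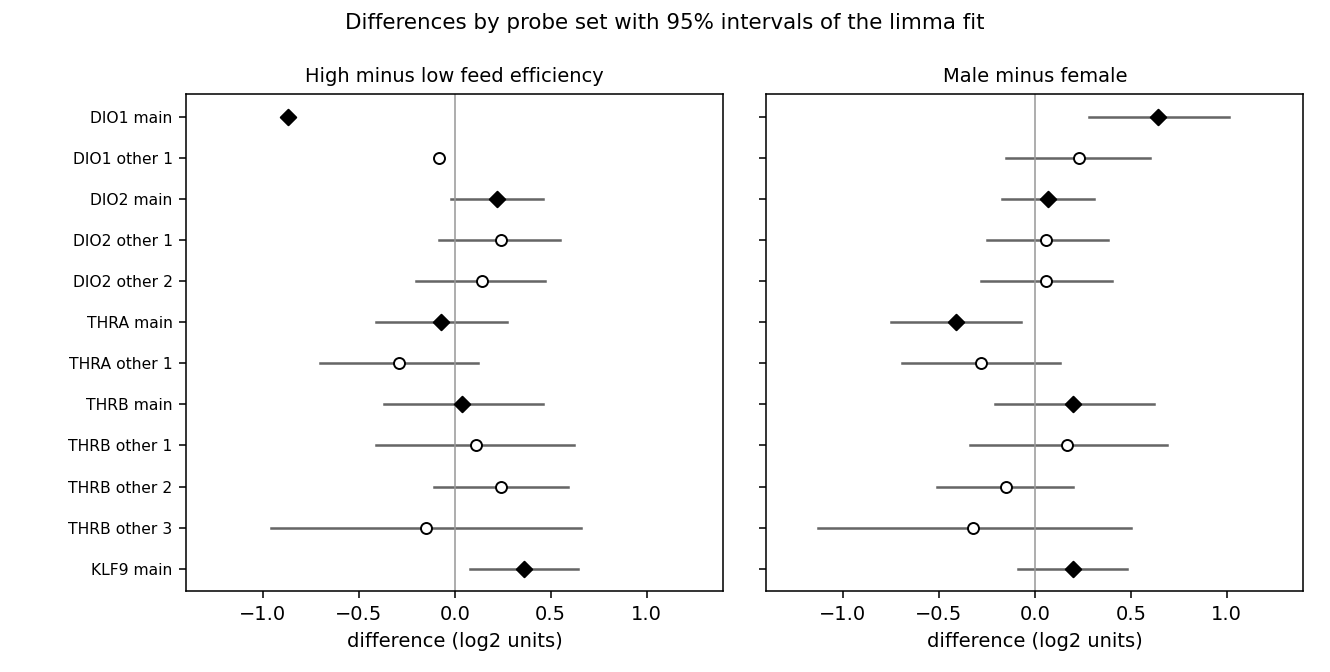
Differences in log2 units for the 12 tested probe sets of the 5 genes, high minus low feed efficiency (left) and male minus female (right), with filled diamonds for main and open circles for other probe sets. Lines are 95% intervals of the limma fit, unadjusted for the number of probe sets; none is drawn for DIO1 on the left, where the gene was chosen on that difference. The DIO1 probe sets lie at -0.87 and -0.08 on the left, and the THRA probe sets both lie below 0 on the right.

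Correlations of DIO1 with the other genes differed between the pooled pigs and the separate groups. Over the 12 pigs DIO1 and KLF9 had r of -0.14 and rho of -0.34 (permutation p 0.657 and 0.276; adjusted over 30 relations 0.769 and 0.678), and r was -0.37 without the 2 pigs farthest from the DIO1 median. The pooled sign depended on the DIO1 probe set, since r with KLF9 was 0.53 on the other probe set and 0.09 on the mean of both. Inside each group, by the main probe set, the sign was positive: r 0.64 and rho 0.66 in high feed efficiency pigs (exact p 0.182 and 0.175, n = 6), and r 0.72 and rho 0.54 in low feed efficiency pigs (exact p 0.0903 and 0.297, n = 6). After each pig was set relative to the mean of its group and sex, r was 0.52. None of these relations passed its test.

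DIO1 and DIO2 had r of -0.35 and rho of -0.39 over 12 pigs (permutation p 0.268 and 0.209; adjusted 0.769 and 0.678), with r of 0.63 in high feed efficiency and -0.06 in low feed efficiency pigs. For THRA r was -0.22 and rho -0.10 (permutation p 0.503 and 0.749; adjusted 0.769 and 0.864), with r of 0.08 in high feed efficiency and -0.81 in low feed efficiency pigs. In the low group the 3 males had the highest DIO1 and the lowest THRA values. For THRB r was 0.20 and rho 0.24 (permutation p 0.525 and 0.443; adjusted 0.769 and 0.707), with r of 0.11 in high feed efficiency and 0.62 in low feed efficiency pigs. Without the 2 pigs farthest from the DIO1 median, r was -0.53 for DIO2, 0.06 for THRA and -0.06 for THRB.

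**Figure D4:**
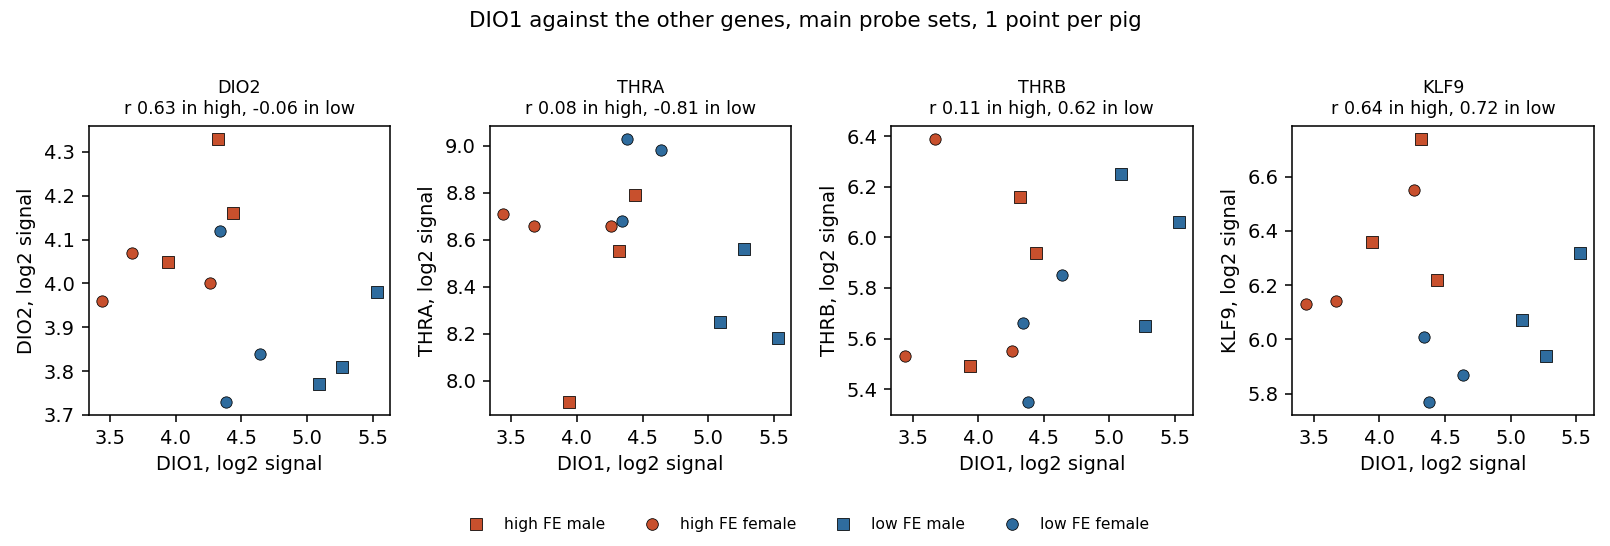
Log2 signal of DIO1 (horizontal) against DIO2, THRA, THRB and KLF9 (vertical), 1 point per pig, with colours for feed efficiency (FE) group and squares for males. Pearson's r within each group of 6 is printed above each panel; for KLF9 it is positive in both groups (0.64 and 0.72), while the groups are offset in opposite directions on the axes.

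Among all 10 pairs of the 5 genes, DIO2 and KLF9 had the smallest p over the 12 pigs. Their r was 0.75 and rho 0.68 (permutation p 0.00561 and 0.0196; adjusted over 30 relations 0.168 and 0.550), with r of 0.60 in high feed efficiency and 0.53 in low feed efficiency pigs. Without the 2 pigs farthest from the DIO2 median, r was 0.44. THRA and KLF9 ran against each other in low feed efficiency pigs, at r -0.89 and rho -0.94 (exact p 0.00556 and 0.0167, unadjusted, n = 6). Their r was -0.18 in high feed efficiency pigs and -0.44 over 12 pigs (permutation p 0.146, adjusted 0.679). After the means of group and sex were subtracted, r was -0.26. In the low group THRA averaged 8.33 in males and 8.90 in females, and KLF9 6.11 in males and 5.88 in females.

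Cell markers were set beside the genes, because the mucosa holds several cell types. Over 12 pigs DIO1 correlated with the enterocyte mean at r 0.17 and rho 0.16 (permutation p 0.597 and 0.621; adjusted 0.769 and 0.794), and with the fibroblast mean at r -0.42 and rho -0.23 (permutation p 0.175 and 0.471; adjusted 0.679 and 0.707). The same r was 0.14 with T and cytotoxic cell markers and -0.14 with smooth muscle markers (rho 0.06 and 0.03; permutation p 0.667 and 0.660, and 0.870 and 0.921 for rho; adjusted 0.769 each, and 0.932 and 0.953 for rho). Without the 2 pigs farthest from the DIO1 median, r was 0.01, -0.07, 0.24 and 0.12 for enterocyte, fibroblast, T cell and smooth muscle markers. After subtracting the means of group and sex, r was -0.13, -0.36, -0.74 and -0.22 in the same order.

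The marker relations of DIO1 differed in size between the groups, and for T cell, enterocyte and smooth muscle markers in sign. That difference was not tested. With the fibroblast mean, r was 0.00 and rho 0.20 in high feed efficiency pigs (exact p 0.993 and 0.714, n = 6), and r -0.94 and rho -0.94 in low feed efficiency pigs (exact p 0.00694 and 0.0167, n = 6). In the low group the males had the highest DIO1 and the lowest fibroblast values. With T and cytotoxic cell markers, r was -0.80 and rho -0.89 in high feed efficiency pigs (exact p 0.0597 and 0.0333, n = 6), and r 0.33 and rho 0.26 in low feed efficiency pigs (exact p 0.514 and 0.658, n = 6). For enterocyte markers r was -0.45 and rho -0.09 within the high group, and r 0.56 and rho 0.43 within the low group. For smooth muscle markers r was 0.35 and rho 0.49 within the high group, and r -0.65 and rho -0.54 within the low group. High replicate 1 lay far from the rest of its group on both, with enterocyte markers at 8.22 (others 9.80 to 10.01) and smooth muscle markers at 8.64 (others 7.76 to 8.17). It also had the highest DIO1 of that group, and r within the group without it was not computed, so these 2 differences in sign may rest on 1 pig. These exact p-values within the groups are unadjusted.

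Enterocyte markers averaged 9.63 ± 0.698 in high feed efficiency and 9.92 ± 0.371 in low feed efficiency animals (SD, n = 6 each), with 17 of 20 lower in the high group, and without high replicate 1 the high mean was 9.91 and 9 of 20 were lower. T and cytotoxic cell markers lay between 7.23 and 8.06 in high feed efficiency pigs, and between 7.60 and 8.02 in low feed efficiency pigs. They averaged 7.61 ± 0.297 in high feed efficiency and 7.84 ± 0.166 in low feed efficiency pigs, with 11 of 12 lower in the high group. Without high replicate 1, the lowest pig at 7.23, the high mean was 7.69 and 9 of 12 were lower. Over all genes tested, 1 probe set each, 7148 of 12489 were lower in the high group. With the enterocyte mean as a covariate, the DIO1 difference was -0.85 (SE 0.177) and that of KLF9 0.42 (SE 0.118, limma adjusted p 0.277). The part of the T cell markers in these differences was not tested.

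The genes around the hormone were read in the same fit, by lists of known roles. In each list 0 genes passed limma's adjusted threshold for feed efficiency, and the unadjusted counts given below stand beside 7.09% of all genes (886 of 12489, 1 probe set each) with an unadjusted p under 0.05. The median difference was -0.033 log2 units over all genes, 1 probe set each.

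Of the transporters that carry thyroid hormones across membranes, 7 of 9 tested were lower and 2 higher in high feed efficiency pigs, with a median difference of -0.08 and 0 at an unadjusted p under 0.05. SLC16A10, which carries T3 and aromatic amino acids, differed by -0.16 (SE 0.255), with means of 6.68 ± 0.638 in high feed efficiency and 6.84 ± 0.335 in low feed efficiency pigs. SLC7A8, an amino acid exchanger that also carries iodothyronines, differed by -0.52 (SE 0.376), and its other probe set by 0.21. The liver bile acid carrier SLC10A1 and SLC17A4 were dim and differed by -0.15 and -0.08.

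The enzymes and proteins that inactivate, conjugate, deiodinate or bind the hormone and its relatives, listed together with sulfatases, were lower in 8 of 10 tested and higher in 2, with a median of -0.17. IYD, the iodotyrosine deiodinase that recovers iodide in the thyroid gland, had the largest difference of the list. Its lowest, median and highest values were 3.97, 6.11 and 6.65 in high feed efficiency pigs, and 6.30, 7.11 and 7.50 in low feed efficiency pigs. All 6 high feed efficiency pigs lay below the low median, and the lowest value was that of high replicate 1. The means were 5.71 ± 1.12 in high feed efficiency and 7.06 ± 0.408 in low feed efficiency animals (SD, n = 6 each), a difference of -1.35 (SE 0.447, unadjusted p 0.0102, limma adjusted p 0.621), which was -0.97 without high replicate 1. The 3 tested IYD probe sets ranged from -1.35 to -0.13.

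The lysosomal sulfatase ARSA was the other gene of that list with an unadjusted p under 0.05, at -0.36 (SE 0.130, limma adjusted p 0.624), and its 3 probe sets had 1 direction, -0.43 to -0.21. Whether ARSA acts on thyroid hormone was not examined here. ALB, which encodes the plasma carrier albumin, was dim and differed by -0.22 (SE 0.129). DIO3, the deiodinase that inactivates T4 and T3, averaged 4.93 ± 0.287 in high feed efficiency and 4.88 ± 0.298 in low feed efficiency animals (SD, n = 6 each). Its difference was 0.05 (SE 0.168, limma adjusted p 0.960), and the other DIO3 probe set differed by -0.13.

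**Figure D5:**
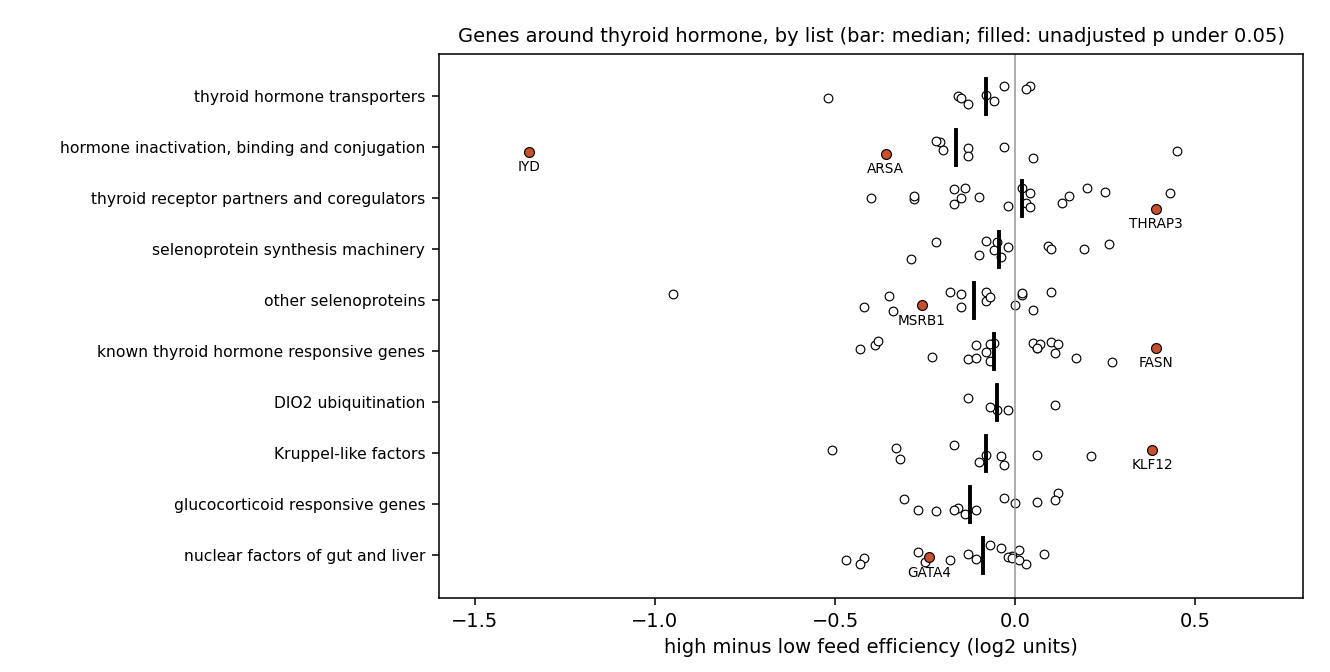
High minus low feed efficiency difference (log2 units) of each tested gene in 10 lists of genes related to thyroid hormone, 1 point per gene, spread vertically for legibility. Bars are list medians, and filled, named points are genes with an unadjusted p under 0.05, none of which passed limma's adjusted threshold; IYD lies farthest from 0, at -1.35.

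The partners and coregulators of the thyroid receptors divided evenly, with 9 lower and 10 higher of 19 tested and a median of 0.02. RXRA, a DNA-binding partner of the receptors, differed by -0.17 (SE 0.140), NCOR1, the corepressor bound without hormone, by -0.28 (SE 0.153), and CARM1, a coactivator methyltransferase, by -0.40 (SE 0.230). THRAP3, a receptor-associated protein of the splicing machinery, was the gene with an unadjusted p under 0.05: it averaged 10.11 ± 0.384 in high feed efficiency and 9.72 ± 0.254 in low feed efficiency animals (SD, n = 6 each), a difference of 0.39 (SE 0.165, limma adjusted p 0.630). Its 5 tested probe sets lay at 0.03 to 0.51, and those of NCOR1 at -0.75 to -0.05.

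Deiodinases depend on selenocysteine, and the machinery that inserts it was lower in 8 of 12 genes tested and higher in 4, with a median of -0.05 and 0 at an unadjusted p under 0.05. Without high replicate 1, 5 were lower and 7 higher, with a median of 0.01, and without high replicate 5 also 5 were lower. SECISBP2, which binds the selenocysteine insertion element of these mRNAs, differed by -0.06 (SE 0.126). EEFSEC, the elongation factor for selenocysteine, differed by -0.29 (SE 0.140), SCLY, which recycles selenium, by -0.22 (SE 0.138), and NCL, an RNA-binding nucleolar protein, by 0.26 (SE 0.183). Other selenoproteins were lower in 11 of 16 tested and higher in 5, with a median of -0.11. MSRB1, a methionine sulfoxide reductase, differed by -0.26 (SE 0.113, unadjusted p 0.0408, limma adjusted p 0.638), with all 6 high feed efficiency pigs below the low median. TXNRD1, a thioredoxin reductase, differed by -0.42 (SE 0.281), and GPX2, the glutathione peroxidase of the gut epithelium, by -0.95 (SE 0.702), with an SD of 1.25 in high feed efficiency and 1.55 in low feed efficiency pigs.

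Genes known to respond to thyroid hormone in other tissues divided evenly as well, with 11 of 21 tested lower and 10 higher and a median of -0.06. FASN, the fatty acid synthase, averaged 9.62 ± 0.306 in high feed efficiency and 9.23 ± 0.291 in low feed efficiency animals (SD, n = 6 each), a difference of 0.39 (SE 0.158, unadjusted p 0.0301, limma adjusted p 0.630), with its 3 probe sets at 0.24 to 0.39. BCL3, a cofactor of NF-kappaB, differed by -0.39 (SE 0.186), with all 6 high feed efficiency pigs below the low median. PPARGC1A, a coactivator of mitochondrial genes, differed by 0.27 (SE 0.175), but its 7 tested probe sets ran from -0.50 to 0.77. Of the ubiquitin system that turns DIO2 protein over, 4 of 5 genes tested were lower and 1 higher, with a median of -0.05. Without high replicate 1, 2 were lower and 3 higher (median 0.08), as with quantile normalization (median 0.05). The conjugating enzymes UBE2G2 and UBE2J1 differed by 0.11 (SE 0.0905) and -0.07 (SE 0.123), and the ligase subunit RNF7 by -0.13 (SE 0.130).

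The other Krüppel-like factors were read beside KLF9, with 8 of 11 tested lower, 3 higher and a median of -0.08, or 6 lower and 5 higher with quantile normalization. KLF12, a transcriptional repressor, shared the sign of KLF9 at 0.38 (SE 0.146, unadjusted p 0.0240, limma adjusted p 0.630), and 5 of its 6 other probe sets had that direction. KLF4, a factor of differentiating epithelium, differed by -0.32 (SE 0.152), and KLF7 by -0.51 (SE 0.296), with the other KLF7 probe set at 0.18. Glucocorticoid-responsive genes, read because glucocorticoids also induce KLF9, were lower in 8 of 12 tested and higher in 4, with a median of -0.12. TSC22D3, a classical glucocorticoid target, differed by -0.16 (SE 0.0989), while none of its other tested probe sets shared that sign and the highest was at 0.09. ERRFI1 differed by -0.31 (SE 0.254) and SGK1 by -0.22 (SE 0.208).

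Nuclear factors of liver and gut, of the kind that act on metabolic genes such as DIO1, were lower in 14 of 18 tested and higher in 4, with a median of -0.09, or 11 lower and 7 higher with quantile normalization. GATA4, a factor of the proximal small intestine, averaged 7.93 ± 0.188 in high feed efficiency and 8.17 ± 0.163 in low feed efficiency animals (SD, n = 6 each), a difference of -0.24 (SE 0.103, unadjusted p 0.0350, limma adjusted p 0.630), while its other probe set differed by 0.00. PPARA and PPARG, fatty acid receptors, differed by -0.25 (SE 0.126) and -0.47 (SE 0.243). The 5 PPARG probe sets had 1 direction, -0.51 to -0.21, and the other PPARA probe set differed by 0.09.

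Genes whose pattern was most like that of each thyroid gene were ranked by Pearson's r over the 12 pigs among 12488 genes, as a description. For DIO1 they were KCNC4 (r 0.838), GSX1 (0.837), LMOD3 (0.836), CCRL2 (0.833) and G0S2 (0.824), with group differences of -0.30, -0.35, -0.25, -0.50 and -0.19. The other KCNC4 probe set differed by 0.71, in the opposite direction. After the means of group and sex were subtracted, r for these 5 was 0.52, 0.66, 0.64, 0.11 and 0.52. The genes most like DIO1 on that scale were STX16 (0.932), MLKL (0.931), ZFAND2A (0.919), FBXO41 (0.914) and MTNR1B (0.912). Over the 12 pigs r for these was -0.07, 0.31, -0.29, 0.78 and 0.40, with group differences of 0.33, -0.01, 0.23, -0.18 and -0.02. The 6 tested STX16 probe sets ran from -0.10 to 0.33. Most of the genes like DIO1 over the 12 pigs were dim. LMOD3 lay at 1.89 to 2.74, around the median of 2.53 of the background probe sets, and KCNC4, GSX1 and G0S2 lay at 3.96 to 5.27. FBXO41 and MTNR1B were dim too, at 3.86 to 4.91, so a shared pattern at such signals does not show that these transcripts were present.

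The genes most like DIO2 were NUAK1 (r 0.927), P2RY1 (0.918) and HMCN1 (0.912), and those most like THRA were HCRTR2 (0.936), NELFCD (0.933) and CASC3 (0.928). For THRB they were SGMS1 (0.934), ZNF169 (0.892) and NR2C2 (0.855). For KLF9 they were TBL1X (0.968), KIAA0907 (0.937) and CBX5 (0.934). HCRTR2 was dim, at 1.92 to 2.57, around the median of 2.53 of the background probe sets. TBL1X, a subunit of the corepressor complex that holds NCOR1, averaged 8.68 ± 0.118 in high feed efficiency and 8.53 ± 0.0699 in low feed efficiency animals (SD, n = 6 each), a difference of 0.15 (SE 0.0952, limma adjusted p 0.714), and its r with KLF9 was 0.95 after the means of group and sex were subtracted.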

How the data were processed

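The values used are the log2 signals deposited by the authors, for 47845 probe sets on 12 arrays. The submitters' processing notes name GCOS 1.1.1; background correction, summarization and normalization were not given in the sources used here, and no new normalization was applied. After removal of 123 controls, 47722 probe sets remained, of which the platform annotation gave 26426 a single gene symbol, 0 several symbols and 21296 none; 422 symbols were updated through synonyms in the RefSeq table of Sscrofa11.1.

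The 35791 probe sets with a mean above the 25th percentile (2.29 log2 units) entered linear models in limma 3.58.1, R 4.3.3 (lmFit and eBayes, Benjamini-Hochberg adjustment, threshold 0.05). Feed efficiency and sex were additive terms, and the interaction came from the 4 means of group and sex. The fit was tested on simulated data. Correlations used 100000 resamples over 12 pigs, or all 720 orderings within 6 (exact), two-sided. Arrays have no read depth, and their number limits the precision: the median standard error was 0.169 log2 units.

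The members and gene lists were chosen with earlier results of these data known. All member probe sets are named. From each list the 3 genes of smallest unadjusted p are named, with SLC16A10, RXRA, NCOR1, SECISBP2, HNF4A and DIO3 whatever their values; 1 further gene of that rule is not reported here. The 5 genes most like DIO1 on either scale, and the 3 most like each other member, are named too. DIO1 and KLF9 were left out of the lists that held them. Lists use 1 probe set a gene, that of the highest mean. Marker means are over the genes of each cell type list. Alternatives were array weights, quantile normalization, other filters, the mean over probe sets, an enterocyte covariate and leaving out each pig. The other DIO1 probe set and array spread (SD of its values) as a covariate were added after seeing the data.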

Additional observations from a re-analysis of the deposited data

Results flagged for a closer look

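One value stood far from the others of its group. On the main THRA probe set, high feed efficiency replicate 3, a male, was at 7.91 log2 units, while the other 5 pigs of its group were between 8.55 and 8.79. Its gap to the nearest pig was 0.733 of the whole range of the group, above Dixon's critical value of 0.625 for 6 samples. Chance flags about 1 in 20 groups, and 28 groups of 6 were examined, of which this was the 1 flagged. Without this pig the feed efficiency difference of THRA was 0.03 in place of -0.07.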

How the results depend on the processing

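The DIO1 feed efficiency difference of -0.87 lay between -0.99 and -0.78 with any 1 pig left out. It was -0.47 as the mean of both probe sets and -0.08 on the other probe set, where the interaction was 0.03 in place of -0.40. The feed efficiency differences of DIO2 and KLF9 kept their sign and stayed outside the adjusted threshold in all alternatives run (0.17 to 0.28, and 0.21 to 0.42). THRA turned to 0.05 with quantile normalization and 0.09 with the array spread as a covariate, and ran from -0.17 to 0.03 with 1 pig left out. THRB ran from -0.10 to 0.14 with 1 pig left out. Averaged over all probe sets, the sex differences were -0.01 for DIO2 and -0.02 for THRB. With the enterocyte mean as a covariate, the interaction was -0.0032 for THRA and 0.18 for KLF9. The KLF9 interaction was 0.10 with array weights, and -0.21 to 0.08 with 1 pig left out.

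Correlations with DIO1 changed sign as follows. As deviations from the means of group and sex, r was 0.25 for DIO2, 0.37 for THRA, 0.52 for KLF9, -0.13 for enterocyte and -0.74 for T cell markers. On the other DIO1 probe set, r was 0.21 for DIO2, -0.10 for THRB, 0.53 for KLF9 and -0.34 for T cell markers, and averaged over probe sets 0.09 for KLF9 and -0.02 for T cell markers. With 1 pig left out, r ran from -0.02 to 0.36 for enterocyte, -0.22 to 0.12 for smooth muscle and -0.01 to 0.35 for T cell markers. The counts of lower genes were 5 of 12 in place of 8 for the selenocysteine machinery without high replicate 1 or 5, and 2 of 5 in place of 4 for DIO2 ubiquitination without high replicate 1 or with quantile normalization. The cause of these changes was not tested. With the filter at the 50th percentile (4.09) DIO2 was below it and gave no value. No paired analysis was possible because the labels give no replicate numbers; those used here only name the pigs.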

Other observations

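Some genes of the lists differed between the sexes at an unadjusted p under 0.05 and were chosen after their values were seen. The hormone-responsive genes PCK1, of glucose and glycerol synthesis, CPT1A, of fatty acid entry into mitochondria, and PDK4, which restrains glucose oxidation, were lower in males than in females by their main probe sets, at -1.18 (unadjusted p 0.00905), -0.79 (unadjusted p 0.0191) and -0.91 (unadjusted p 0.0257). The glucocorticoid-induced kinase SGK1 was at -0.65 (unadjusted p 0.00884). None of the 4 passed limma's adjusted threshold over 35791 probe sets, where 9.26% had an unadjusted p under 0.05 between the sexes. DIO1 had the opposite sign, at 0.64. Other hormone-responsive genes shared the sign of DIO1, such as PPARGC1A at 0.28 and FASN at 0.27, so that list had no common direction. In other lists PPARG (-0.84) and PPARA (-0.39) were lower in males, and the transporter SLCO4A1 (0.26) was higher. Their unadjusted p-values were 0.00482, 0.00937 and 0.0420. ARSA (-0.37), CARM1 (-0.55), GATA4 (-0.24) and the glutathione peroxidase GPX4 (-0.36) were lower in males too, with unadjusted limma p-values of 0.0152, 0.0330, 0.0398 and 0.0456. None of the genes of these other lists passed limma's adjusted threshold. All of these sex differences are those of main probe sets.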
